A study of Mus musculus with 3 samples.

Results

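Dual-specificity phosphatases that switch off mitogen-activated protein kinases (MAPKs) were followed in mouse heart in animals that did or did not receive esmolol, an intravenous drug that blocks beta-1 adrenergic receptors. The 10 genes Dusp1, Dusp2, Dusp3, Dusp4, Dusp5, Dusp6, Dusp8, Dusp10, Dusp14 and Dusp16 were looked up by current or older symbol among array probes whose annotation names a single gene. Of these, 9 had a probe, 15 probes in all of 41174 on the array, and stood among 19532 named genes; no annotated probe named Dusp5, an ERK-specific nuclear phosphatase, and its expression was not analysed here. All animals were C57BL/6 mice, in 6 groups of 8 per the series' design text, and RNA came from 30 mg of heart; the sources used here give no age, LPS dose or time of sampling. The non-septic contrast sets mice infused with esmolol (20 mg/kg/h through a jugular catheter) against mice without treatment. The LPS contrast makes the same comparison in mice given lipopolysaccharide, a bacterial endotoxin, into the peritoneum, and the CLP contrast in mice with polymicrobial sepsis from cecal ligature and perforation. Each contrast was deposited as 1 ratio per probe in which 4 replicates with dye swaps had been merged, so these values come without replicate error, p-values or confidence intervals. Values are given as log2 ratios of esmolol over untreated hearts, with base 2 as an assumption.

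MAPKs are activated by phosphorylation on a threonine and a tyrosine of one loop, and the dual-specificity phosphatases remove both phosphates. Many of these phosphatases are themselves transcribed in response to MAPK signalling, which closes a negative feedback loop, and they differ in location and in their preference for ERK, JNK or p38. In the heart, MAPKs take part in hypertrophic growth and stress responses, and in immune cells p38 and JNK drive cytokine production, which Dusp1 restrains after endotoxin in mice. Beta-adrenergic receptors act through cyclic AMP, whose nuclear effector CREB binds the cyclic AMP response element (CRE).

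The direction of the CLP values depends on how the labels are read. In the sample titles esmolol comes first for non-septic and for LPS mice but last for CLP mice, whereas the design text places treated against untreated hearts throughout. The CLP sign was turned to follow its title, so that a positive value stands for more transcript under esmolol throughout. If the deposited CLP values do not follow the title, every CLP sign below is the opposite.

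No member reached 1.5-fold (0.58 on the log2 scale) in any contrast. The count was 0 of 9 measured members in each contrast, where 0.460% (non-septic), 4.32% (LPS) and 0.952% (CLP) of all named genes were past it. Member ratios ran from -0.43 to 0.14 in non-septic, from -0.40 to 0.39 in LPS and from -0.09 to 0.24 in CLP hearts. At the looser threshold of 1.2-fold (0.26 on the log2 scale), 1 of 9 was lower in non-septic hearts, Dusp8, where 2.91% of all named genes were, and none was higher, beside 2.33%. In LPS hearts 3 of 9 were lower by this threshold, Dusp1, Dusp2 and Dusp10, beside 14.4% of all genes, and 1, Dusp14, was higher, beside 15.4%. In CLP hearts none was past 1.2-fold, beside 2.06% of all genes lower and 3.92% higher. Such a threshold is a size and not a test. Probes of one gene differed from each other with a pooled SD, the one measure of error inside the table, of 0.11 in non-septic, 0.24 in LPS and 0.10 in CLP hearts. It covers neither animals nor hybridizations.

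**Figure D1:**
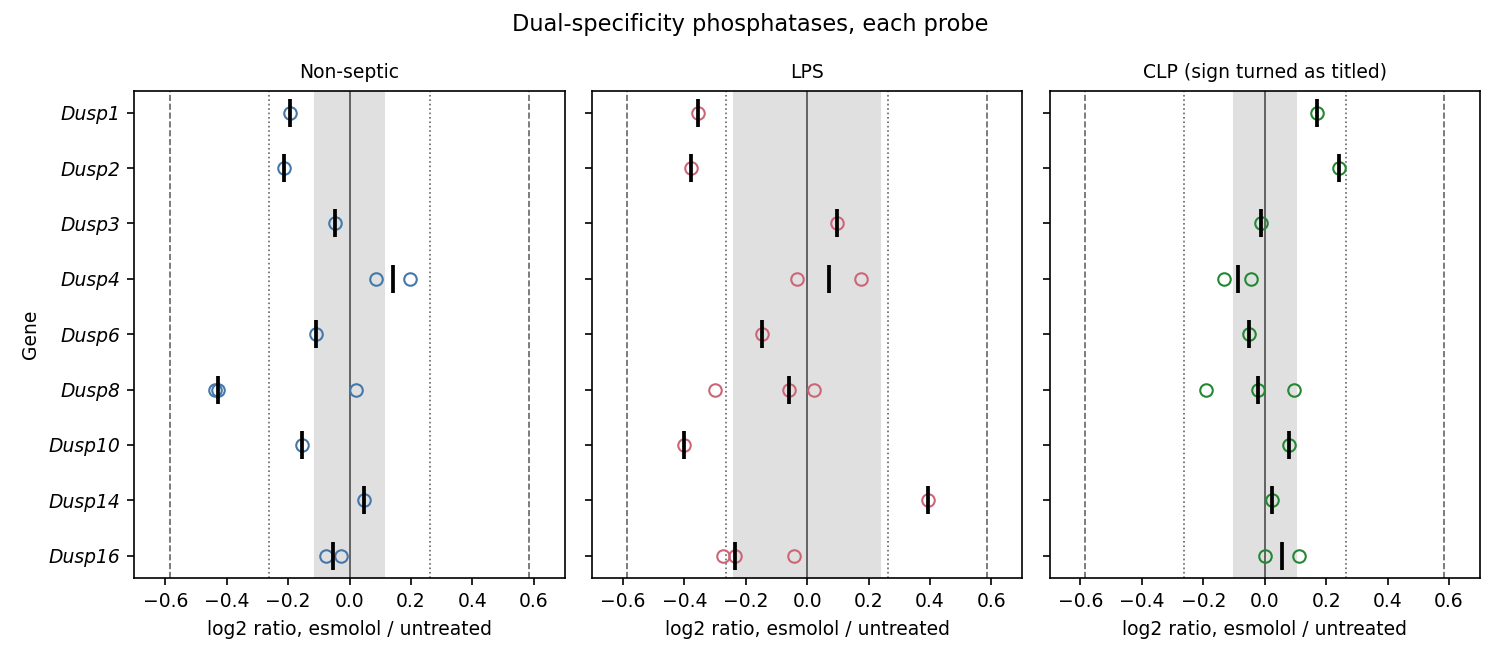
Log2 ratio of esmolol over untreated hearts (x axis) for each measured probe (open circles) of each member (y axis) in the 3 contrasts; black bars mark the median over a gene's probes, the grey band spans 1 pooled SD between probes on either side of 0, and dotted and dashed lines mark 1.2-fold and 1.5-fold. All members lie inside the dashed lines, and the LPS band (0.24) is the widest.

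Dusp1, Dusp2 and Dusp10 lay below 0 in non-septic and LPS hearts and above 0 in CLP hearts as titled. The 250 bases before their RefSeq start sites (mouse build GRCm38.p6) are printed here because these were the members at least 1.2-fold lower in LPS hearts. Dusp1 is taken from chr17:26508473-26508722 on the minus strand, Dusp2 from chr2:127335909-127336158 and Dusp10 from chr1:184034131-184034380, both on the plus strand. Capitals mark matches on either strand to the CRE core (TGACG) and to the E-box (CACGTG).
Dusp1: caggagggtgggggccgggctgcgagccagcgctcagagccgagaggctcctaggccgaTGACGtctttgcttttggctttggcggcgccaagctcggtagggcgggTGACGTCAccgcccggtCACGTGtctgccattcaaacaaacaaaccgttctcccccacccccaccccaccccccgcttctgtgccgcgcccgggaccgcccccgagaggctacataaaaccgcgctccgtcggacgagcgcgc
Dusp2: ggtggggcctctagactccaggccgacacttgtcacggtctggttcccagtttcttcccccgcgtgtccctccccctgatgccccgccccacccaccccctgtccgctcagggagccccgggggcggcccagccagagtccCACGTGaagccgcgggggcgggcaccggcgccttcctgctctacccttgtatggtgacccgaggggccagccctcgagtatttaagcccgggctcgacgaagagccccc
Dusp10: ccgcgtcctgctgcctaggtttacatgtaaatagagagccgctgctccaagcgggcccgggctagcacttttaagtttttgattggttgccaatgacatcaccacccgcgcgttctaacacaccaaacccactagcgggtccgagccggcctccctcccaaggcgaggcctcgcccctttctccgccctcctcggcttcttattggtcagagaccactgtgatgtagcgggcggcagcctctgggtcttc

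The Dusp1 window held the full CRE palindrome (TGACGTCA) once, starting 143 bases before the start site, a further CRE core at 191 bases and an E-box at 126 bases. The palindrome contains the core on both strands, so these matches overlap. The Dusp2 window held an E-box at 109 bases and no CRE core, and the Dusp10 window held neither. Over all 32851 windows of this length in the RefSeq table, 1.55% held the full CRE, 17.8% the core and 6.02% the E-box. Of the 9 measured members, 8 (all but Dusp4) matched a window, of which 2 held the full CRE (Dusp1 once and Dusp8 2 times) and 3 held the core. GC boxes (GGGCGG on either strand) stood in 7 of the 8, against 32.7% of all windows. AP-1 sites (TGANTCA) and TATA boxes (TATAAA) stood in none of the 8, against 6.75% and 12.4%. The 8 windows had 56.4% to 71.6% G and C, and the windows they were set against were not matched for this. All these counts are letter matches and not measured binding.

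Among the inducible nuclear phosphatases, Dusp1 (MKP-1), an immediate early gene whose product acts on p38, JNK and ERK, was measured by 1 probe, A_51_P430900. Its log2 ratio was -0.19 in non-septic, -0.35 in LPS and 0.17 in CLP hearts. In LPS hearts this is 1.28-fold lower with esmolol, a size 1.49 times the pooled SD between probes, and 8.57% of named genes were as low or lower. Its CLP value, 1.13-fold higher as titled, was 1.68 times the probe SD of that contrast, and 8.02% of genes were as high or higher. Dusp1 therefore stood toward the lower end of all genes in 2 contrasts and toward the upper end in the other, without reaching 1.5-fold in any.

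Dusp2 (PAC-1), a nuclear phosphatase found mainly in leukocytes, was measured by 1 probe, A_52_P399934. Its log2 ratio was -0.21 in non-septic, -0.38 in LPS and 0.24 in CLP hearts. These are 1.16-fold lower, 1.3-fold lower and 1.18-fold higher with esmolol. Of all named genes, 4.69% were as low or lower in non-septic and 7.59% in LPS hearts, and 4.5% were as high or higher in CLP hearts. In CLP hearts Dusp2 was the highest member, at 2.39 times the probe SD. The ratios of Dusp1 and Dusp2 differed by 0.02 in non-septic and in LPS hearts and by 0.07 in CLP hearts, less than the probe SD of each contrast.

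Dusp4 (MKP-2), a close relative of Dusp1 and likewise nuclear, had 2 probes and did not share that pattern. Its probes A_51_P347333 and A_51_P518051 gave 0.20 and 0.08 in non-septic, 0.17 and -0.03 in LPS and -0.13 and -0.04 in CLP hearts. The gene value in non-septic hearts, 0.14 ± 0.08 (SD, n = 2 probes), was the highest of the 9 members, and 9.24% of genes were as high or higher. Its LPS probes lay on both sides of 0 (0.07 ± 0.15, SD, n = 2 probes), and its CLP value was -0.09 ± 0.06 (SD, n = 2 probes).

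Dusp6 (MKP-3), the cytoplasmic phosphatase selective for ERK and a transcriptional target of ERK, was below 0 in all contrasts at its 1 probe, A_51_P502614. The log2 ratios were -0.11 in non-septic, -0.15 in LPS and -0.05 in CLP hearts. Each was smaller than the probe SD of its contrast, and 29.5% of genes lay as far from 0 or farther in non-septic, 54.2% in LPS and 58.1% in CLP hearts.

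The phosphatases that prefer JNK and p38 are Dusp8, Dusp10 and Dusp16. Dusp8 had 3 probes that disagreed. In non-septic hearts A_51_P114314 gave -0.44 and A_51_P263246 gave -0.43, while A_52_P336748 gave 0.02. The median over these probes, -0.43, is 1.34-fold lower with esmolol; 0.679% of genes were as low or lower, the most extreme rank of any member. The SD between the probes was 0.26 (n = 3 probes), larger than the pooled probe SD of 0.11, and the mean over probes was -0.28. In LPS hearts the same probes gave -0.06, -0.30 and 0.02, and in CLP hearts 0.10, -0.19 and -0.02. The size in non-septic hearts thus rests on 2 of 3 probes, and the third lay near 0 in every contrast.

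Dusp10 (MKP-5) was measured by A_51_P104418. Its log2 ratio was -0.15 in non-septic, -0.40 in LPS and 0.08 in CLP hearts. The LPS value, 1.32-fold lower with esmolol and 1.69 times the probe SD, was the lowest of the members there, and 6.56% of genes were as low or lower. Dusp16 (MKP-7), a cytoplasmic phosphatase of JNK, had 3 probes, of which A_52_P374825 was blank in the non-septic and CLP columns. In LPS hearts its probes gave -0.28, -0.24 and -0.04, for a gene value of -0.24 ± 0.12 (SD, n = 3 probes). In non-septic hearts its 2 measured probes gave -0.03 and -0.08, and in CLP hearts 0.001 and 0.11. All LPS probes of Dusp16 were below 0, but the median did not exceed the probe SD.

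The small atypical phosphatases, which lack the MAPK-docking region of the other members, are Dusp3 (VHR) and Dusp14 (MKP-6). At A_51_P461748, Dusp3 was at -0.05 (non-septic), 0.10 (LPS) and -0.01 (CLP), all smaller than the probe SD. Dusp14 gave 0.05, 0.39 and 0.02 in the same order at A_51_P322677, and its other probe, A_52_P297724, was blank in all 3 columns. Its LPS value is 1.31-fold higher with esmolol and 1.66 times the probe SD; 7.05% of genes were as high or higher. Dusp14 was thus the member farthest above 0 in any contrast, opposite in sign to Dusp1, Dusp2 and Dusp10 in the same hearts.

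**Figure D2:**
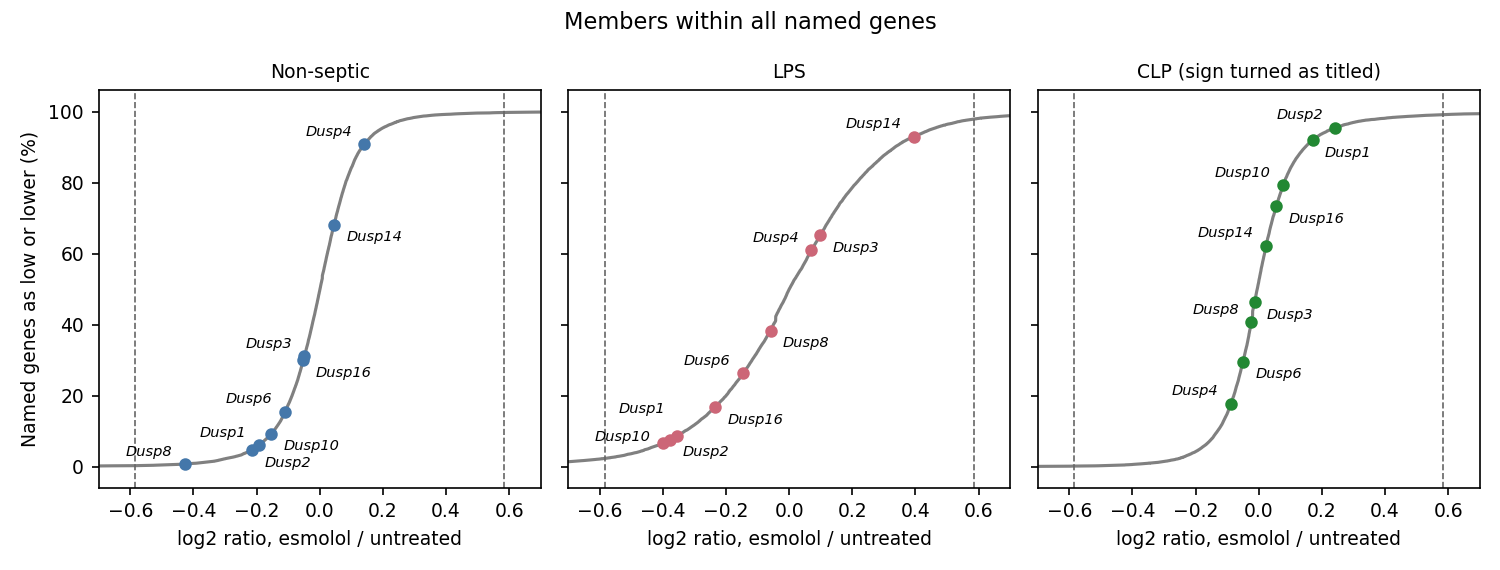
Share of named genes as low or lower (y axis, percent) against the log2 ratio of esmolol over untreated hearts (x axis), with the members as points on the curve of all named genes and dashed lines at 1.5-fold. Dusp8 stands lowest in non-septic hearts, at 0.679%, and Dusp2 highest in CLP hearts as titled, at 95.5%.

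Across the set, 7 of 9 members were below 0 in non-septic, 6 in LPS and 4 in CLP hearts. All named genes were close to evenly divided, with 49.5%, 50.0% and 52.1% below 0. The member median was -0.11 in non-septic, -0.15 in LPS and 0.02 in CLP hearts, beside medians over all genes of 0.001, 0.0001 and -0.005. The LPS median of the members, -0.15, was smaller in size than the probe SD of that contrast (0.24). Over the 7 members whose LPS probes shared a sign it was -0.24. The same filter moved the non-septic median the other way, to -0.08 over 8 members. Members with 1 measured probe always pass this filter, so it does not check their probes against each other. In size, 5 of 9 members exceeded the probe SD in non-septic, 4 in LPS and 2 in CLP hearts, where 28.5%, 34.2% and 30.4% of all genes did. The spread of the members (SD 0.16, 0.27 and 0.11) was near that of all genes (0.14, 0.28 and 0.16).

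Signs in the 3 contrasts divided the members. Dusp1, Dusp2, Dusp10 and Dusp16 were below 0 in non-septic and LPS hearts and above 0 in CLP hearts, a combination found in 14.2% of the 16975 genes measured in all contrasts. Dusp6 and the Dusp8 median were below 0 in all 3, as were 12.0% of genes. Together, 6 of 9 were below 0 in both non-septic and LPS hearts, as were 26.2% of genes. Dusp4 was above 0 in non-septic and LPS hearts and below 0 in CLP hearts, the reverse of Dusp1. Between CLP and LPS hearts the ratio differed by 0.62 for Dusp2, 0.52 for Dusp1 and 0.48 for Dusp10, sizes reached by 6.03%, 9.2% and 11.5% of genes. These sizes hold for the titled CLP sign; with the deposited sign they would be 0.14, 0.18 and 0.32, reached by 58.4%, 46.8% and 23.0% of genes. With the CLP sign as deposited Dusp1, Dusp2, Dusp10 and Dusp16 would be below 0 in all 3 contrasts. No difference between contrasts was tested, since each has 1 merged value.

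**Figure D3:**
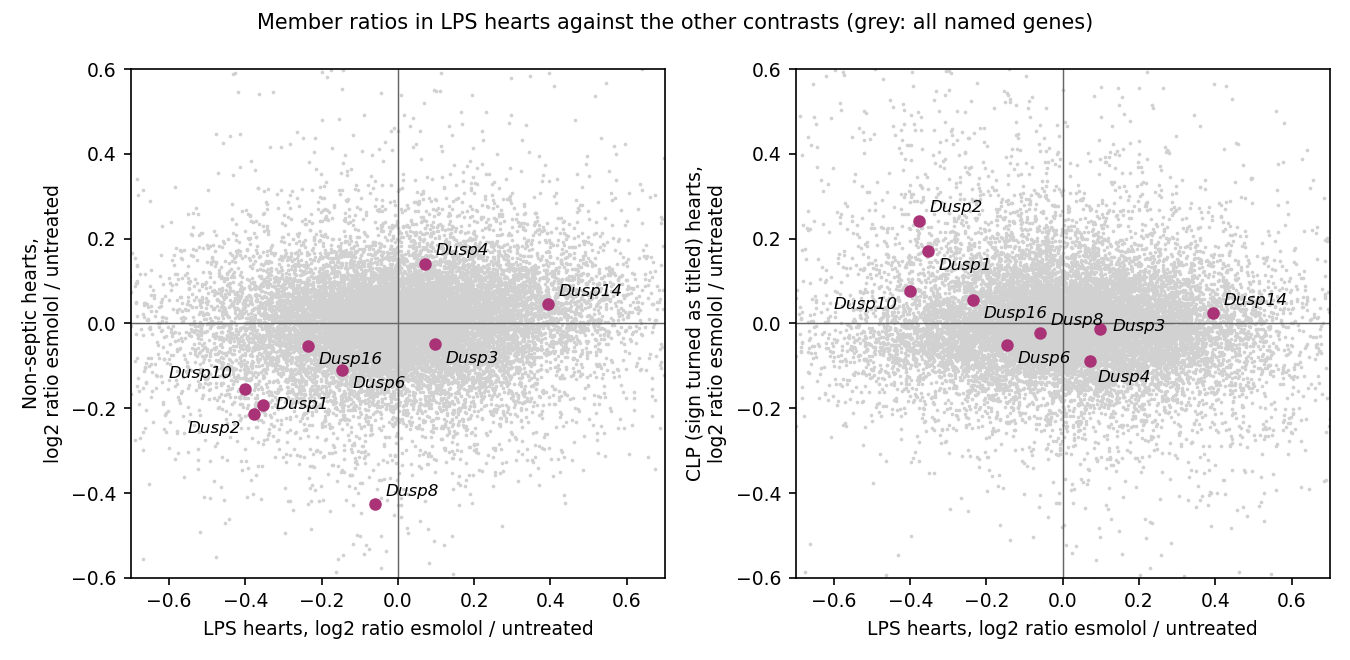
Log2 ratio of esmolol over untreated in LPS hearts (x axis) against non-septic hearts (left y axis) and CLP hearts with the sign turned as titled (right y axis), for the members (purple, named) over all named genes (grey). The axes extend somewhat past the range of the members and are cut there, so genes with larger ratios are not shown. Dusp1, Dusp2 and Dusp10 sit at the lower left in one plot and at the upper left in the other, and Dusp14 stands alone on the right at 0.39.

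Of 14 other DUSP family genes, none was past 1.5-fold in any contrast by the median over probes. Of 13 measured in LPS hearts, 8 were above 0, and their median was 0.14, of opposite sign to that of the members (-0.15). Dusp7, the cytoplasmic ERK phosphatase most like Dusp6, had 1 probe, at 0.07 (non-septic), 0.47 (LPS) and 0.30 (CLP). Dusp19, an atypical phosphatase of the JNK pathway, was highest in LPS hearts (0.57 ± 0.08, SD, n = 3 probes), and its mean over probes, 0.60, is past 1.5-fold. Dusp27, a striated muscle pseudophosphatase, was lowest there (-0.56 ± 0.13, SD, n = 2 probes). Dusp13 was the lowest in non-septic hearts (-0.42) and blank in the septic columns.

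Of the other genes of the pathway, taken from 5 lists, the MAPK-induced transcripts held all but 1 of the ratios past 1.5-fold, the other being that of the kinase gene Rps6ka6. None of 11 MAP kinases and none of 19 upstream kinases passed 1.5-fold in any contrast. Their extremes were Map2k3, an activator of p38 (-0.52 in LPS hearts), and Mapk12, the p38 gamma kinase (0.32 in LPS hearts). Among 8 MAPK-activated kinases measured in non-septic hearts, 1 passed it, Rps6ka6, a ribosomal S6 kinase (-0.72), which was blank in the other columns. Of 11 Sprouty, Spred and other ERK feedback inhibitors in LPS hearts, none passed 1.5-fold. In that list 4 were lower by 1.2-fold, Spry4 (-0.48), Spred1 (-0.43), Spry2 (-0.37) and Errfi1 (-0.32). Higher by as much were 3, Il17rd (0.38), Rasa1 (0.38) and Spred3 (0.29). Spry1 was also above 0 (0.18), so the Sprouty and Spred genes did not share a direction. Of all named genes, 14.4% were lower and 15.4% higher by 1.2-fold in LPS hearts. The SD between LPS probes was 0.21 for Spry4, 0.11 for Spred1, 0.24 for Spry2, 0.19 for Il17rd and 0.22 for Rasa1. Errfi1, Spred3 and Spry1 had 1 probe each.

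Of 27 MAPK-induced transcripts, 21 were below 0 in LPS hearts, with a median of -0.30 beside 0.0001 over all genes. Lower by 1.5-fold or more were 4, the transcription factors Atf3 (-1.29), Fosl1 (-0.96) and Jun (-0.59) and the early response gene Ier2 (-0.62). Each of these was measured by 1 probe there. None was higher, and 4.32% of all named genes were past 1.5-fold either way. In CLP hearts as titled 2 were higher by 1.5-fold or more, Fosl1 (0.71) and Ier3 (0.60), a stress-inducible survival gene. Both had 1 probe, 0.952% of all named genes were past 1.5-fold either way, and the list median was -0.003. In non-septic hearts none passed it and the median was -0.11, the same to 2 decimals as that of the members. Dusp1 is an immediate early gene as well, with an LPS ratio of -0.35. The list ran from -1.29 to 0.51 in LPS hearts. That range holds every member, but it is wide beside all genes and so says little about Dusp1. No gene of this list reached 1.5-fold at a value below 0 in CLP hearts, where Egr1 was lowest (-0.44).

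**Figure D4:**
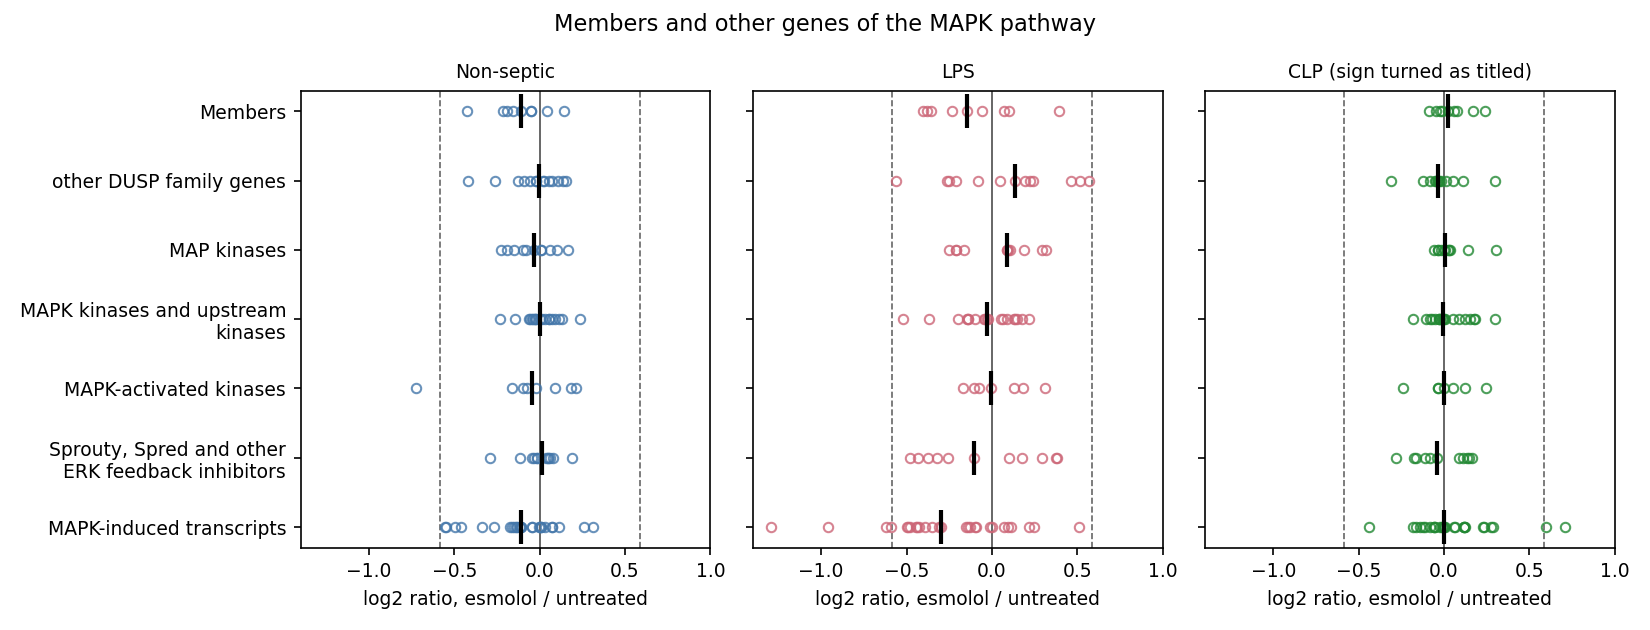
Log2 ratios of esmolol over untreated hearts (x axis) for the members and for the genes of 6 other lists of the pathway (rows; 1 open circle per gene, black bar at the list median), with dashed lines at 1.5-fold. The MAPK-induced transcripts in LPS hearts have the lowest median (-0.30) and reach -1.29, while all members stay within the dashed lines.

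Whole-heart RNA mixes cell types, and fewer cells of a type cannot be told apart from less RNA per cell. The table holds ratios and no levels, so the labelled tissue could not be checked against marker levels. Of 12 cardiomyocyte markers, 10 had a probe on a single recurring value in the LPS column, as no member probe did. Of the 12, 1 was past 1.5-fold there, Tnnt2 (0.62), whose 2 probes had an SD of 0.94. Atrial markers moved with the contrasts, with a median of 0.41 in non-septic (4 of 9 higher by 1.5-fold or more), -0.79 in LPS (5 of 9 lower) and 1.55 in CLP hearts (6 of 9 higher). Macrophage markers, of interest beside the leukocyte gene Dusp2, had medians of 0.12, 0.55 (5 of 12 higher) and 0.24 (3 of 12 higher). Lymphocyte markers had medians of 0.05, 0.01 and 0.0004 with none past 1.5-fold, and neutrophil markers had 0.06 (1 of 10 lower, Lcn2 at -1.68), -0.05 (1 of 10 higher, Retnlg at 0.65) and -0.20 (2 of 9 lower, Retnlg at -0.85 and S100a8 at -0.59). Blood and platelet markers had medians of -0.18, -0.61 (3 of 5 lower) and -0.01. Endothelial markers had medians of 0.06, 0.13 and -0.08, with Sox18 alone past 1.5-fold (1.44 in LPS and -1.47 in CLP hearts), and fibroblast markers had -0.01, 0.08 and 0.22, with Col3a1 alone past it (0.81 and 0.71). Of all named genes, 0.460% (non-septic), 4.32% (LPS) and 0.952% (CLP) were past 1.5-fold either way. The part of these cell types in the member ratios was not tested. For scale, olfactory receptor genes were 1.2-fold or more lower in LPS hearts in 14.7% of 651 cases and higher in 28.7%. Of them 8.45% were as low as Dusp1 or lower and 14.7% as high as Dusp14 or higher.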

How the data were processed

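The deposited table has a column for each of the 3 contrasts with a single log ratio per probe, merged from 4 replicates with dye swaps per the labels. These deposited ratios were taken to be on the log2 scale. The sources used here name no scanner, background correction, normalization, filter, log base or centring. Nothing says whether the merged replicates were separate animals. The column medians as deposited were 0.0044, 0.0083 and 0.0072. Depth has no counterpart here, and the number of arrays limits the precision.

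Probes were named from the platform annotation: 32664 carried 1 symbol, 45 with several symbols were dropped, and 8465 had no name here. Symbols were updated through the gene ID to RefSeq, GRCm38.p6, where 32524 matched. A gene's value is the median over its probes. Genes were counted from 1.5-fold on, with 1.2-fold and 2-fold as alternatives. Counting was tested on simulated data with planted changes past the threshold and noise smaller than the pooled probe SD. That checks the counting code and not the error of the measured values. Members and lists were chosen with earlier results of these data known. The text names all members, and of each pathway list the genes past 1.5-fold and some at its extremes in a contrast. Beyond this rule it names the ERK feedback inhibitors past 1.2-fold in LPS hearts, and Spry1. Genes nearest to a member over the 3 contrasts were to be named for members past 1.5-fold, and 0 members met this. The olfactory receptor values were added after seeing the data. Python 3.11.15 with pandas 2.3.3 was used.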

Additional observations from a re-analysis of the deposited data

How the results depend on the processing

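The count of members past 1.5-fold stayed at 0 in every contrast with probe means, with same-sign probes alone (which leaves out Dusp8 throughout and Dusp4 in LPS hearts), without probes on the recurring value, with centred columns, with the CLP sign as deposited and at 2-fold. Read as natural logs, 1 member was lower in non-septic hearts (Dusp8), where 1.58% of all genes were past 1.5-fold either way. Read as log10, 3 were lower in non-septic hearts, 4 lower and 1 higher in LPS hearts and 1 higher in CLP hearts. On that scale 13.2% of all genes were past 1.5-fold either way in non-septic, 46.7% in LPS and 13.3% in CLP hearts. The member median was then -0.36 in non-septic and -0.48 in LPS hearts. At 1.2-fold, 1 was lower in non-septic hearts, and 3 were lower and 1 higher in LPS hearts. Of all genes, 5.24% and 29.7% were past 1.2-fold either way in these 2 contrasts. Of the pathway genes together, 1.5-fold or more was reached by 1 in non-septic (lower), 4 in LPS (lower) and 2 in CLP hearts (higher). These are 1.1%, 4.55% and 2.27% of the 91, 88 and 88 pathway genes measured, beside 0.460%, 4.32% and 0.952% of all named genes. With probe means 1 was higher in LPS hearts, Dusp19 (0.60 against a median of 0.57), whose 3 probes straddle the threshold. At 2-fold the counts were 0, 1 and 0. At 1.2-fold, 9 were lower and 1 higher in non-septic, 21 and 10 in LPS and 3 and 7 in CLP hearts. As natural logs, 6 were lower in non-septic, 14 lower and 4 higher with LPS, and 1 lower and 2 higher with CLP. As log10, 13 were lower and 6 higher in non-septic, 29 and 20 in LPS and 6 and 12 in CLP hearts. With the CLP sign as deposited, 2 were lower and 0 higher, Fosl1 at -0.71 and Ier3 at -0.60, and the member median was -0.02. These differences follow from the altered scale, sign, threshold or probe summary. With no replicates, a value was counted as moved when it shifted by more than the pooled probe SD, which does not measure replicate spread. Merged values leave no replicate to leave out. No paired analysis was possible because each contrast has 1 merged column and no replicate numbers.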
